A study of Homo sapiens with 31 samples.

Results

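Interferon-stimulated genes are switched on by interferon and by sensors of foreign nucleic acid, and a lentiviral vector enters the cell as RNA that is then copied into DNA. The 39 genes described here were listed by symbol, with earlier results of these data known, and matched through Ensembl identifiers. Of these, 38 had a row among the 30667 rows of the table, and OASL, which codes for a protein related to the 2′-5′ oligoadenylate synthetases, was not analysed here. Levels are in CPM, the unique molecular identifiers (UMIs) of a gene scaled to a common library total. The test took genes above 1 CPM in 1/3 of the libraries or more, which left 34 of the interferon-stimulated genes among 17676 genes. None of the 34 passed the threshold of the study (an adjusted p of at most 0.25) between days, promoters or shRNAs, and the summed level of the 38 genes stayed between 1276 and 1530 CPM in all 31 libraries.

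Type I interferons bind a receptor made of IFNAR1 and IFNAR2, whose kinases JAK1 and TYK2 pass the signal on to transcription factors such as STAT2 and IRF9. These act at the interferon-stimulated response element, a pair of GAAA-like blocks, in the promoters of their target genes. The products bind or cut viral RNA (IFIT and OAS proteins), hold virus at membranes (IFITM proteins, tetherin), modify proteins (ISG15), sense RNA (RIG-I, MDA5) or make peptides for antigen presentation (immunoproteasome subunits), and many of these genes have a level of their own in lymphoid cells without any virus.

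The cells were of the NALM-6 line, derived from a precursor B acute lymphoblastic leukemia (pre-B ALL), and carried 1 of 4 lentiviral constructs, in which the promoter was EF1a or SFFV and the shRNA sh-CTRL or sh-XIAP. EF1a and SFFV are the promoters that drive the cassette, a red fluorescent protein with an shRNA in a miR30 backbone. sh-XIAP targets the caspase inhibitor XIAP, with EF1a/sh-XIAP as moderate and SFFV/sh-XIAP as strong XIAP KD in the study's terms. The control shRNA targets eGFP. For its competition assays the study marked sh-XIAP cells with eGFP and sh-CTRL cells with mTagBFP, and whether the sequenced cells carried these markers is not stated in the sources read here. The labels of the samples describe cells kept in vitro, whereas the design text of the series speaks of cells taken from the marrow of mice. The labels were followed, and the conflict could not be settled. At days 4, 10 and 13 after transduction, EF1a/sh-CTRL had 3, 3 and 3 libraries, EF1a/sh-XIAP 2, 2 and 3, SFFV/sh-CTRL 3, 2 and 2, and SFFV/sh-XIAP 2, 3 and 3. Every group had been transduced, and no untransduced library was among the samples, so the values below compare transduced cells with each other and hold no level from before transduction. The labels do not say whether replicates were separate cultures, and p-values then measure the spread between these libraries, which may be technical.

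Total UMIs per library ranged from 312852 to 1153668, with a median of 603822. The 12 pre-B and B lineage markers summed to 4060 to 4682 CPM, whereas 35 UMIs of plasmacytoid dendritic cell markers, the cell type known for large amounts of interferon, were counted over all libraries, and CLEC4C, a defining marker of it, was not analysed here. Myeloid markers reached at most 25.6 CPM summed. XIAP, the targeted gene, was counted at 10.9 ± 4.34 CPM with EF1a/sh-CTRL (SD, n = 9), 10.0 ± 1.70 with EF1a/sh-XIAP (n = 7), 8.98 ± 3.67 with SFFV/sh-CTRL (n = 7) and 8.80 ± 2.61 with SFFV/sh-XIAP (n = 8). The log2 difference of sh-XIAP from sh-CTRL was −0.05 (limma-voom, SE 0.21, adjusted p = 0.987), so the counts of the targeted transcript do not check the shRNA labels. The EF1a/sh-XIAP and SFFV/sh-XIAP libraries of day 10, replicate 2, were the shallowest (315055 and 312852 UMIs) and stood apart from the others on the first principal component of all genes. Leaving them out gave 0 interferon-stimulated genes called in all comparisons.

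The promoters are shown first because the response element is known from genes of this kind. RefSeq promoter windows of 300 bases (250 before and 50 after the gene start, GRCh38.p14) were found for 30 of the 39 genes, and 19 of the 30 held the letters GAAANNGAAA on either strand (TTTCNNTTTC on the other). Over all 35116 windows, 3.57% held these letters. On the gene level, 63.3% of the 30 genes and 4.38% of all 27305 symbols held them in at least 1 window. In the stretches below, written 5′ to 3′ on the strand of the gene, capitals mark the matches, and the 10 genes were taken to span the range of levels.
ISG15: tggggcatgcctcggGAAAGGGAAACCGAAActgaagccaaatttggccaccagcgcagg
BST2: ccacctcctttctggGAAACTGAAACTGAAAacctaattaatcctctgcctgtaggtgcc
IFIT1: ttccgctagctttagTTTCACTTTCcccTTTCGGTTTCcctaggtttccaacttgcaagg
IFIT5: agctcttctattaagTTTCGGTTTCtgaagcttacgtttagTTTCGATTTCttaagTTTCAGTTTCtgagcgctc
DTX3L: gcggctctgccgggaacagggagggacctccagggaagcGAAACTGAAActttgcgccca
PARP9: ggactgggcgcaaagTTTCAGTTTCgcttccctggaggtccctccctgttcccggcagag
PSMB8: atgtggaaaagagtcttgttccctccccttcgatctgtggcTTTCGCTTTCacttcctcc
EIF2AK2: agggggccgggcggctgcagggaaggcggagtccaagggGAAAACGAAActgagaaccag
IFI27: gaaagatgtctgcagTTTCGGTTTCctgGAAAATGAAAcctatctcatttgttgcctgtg
IFI44L: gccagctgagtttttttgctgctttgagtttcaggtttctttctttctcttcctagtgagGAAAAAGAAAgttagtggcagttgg

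These stretches lie at chr1:1013369-1013428 (ISG15), chr19:17405716-17405775 (BST2, minus strand), chr10:89392492-89392551 (IFIT1), chr10:89414508-89414582 (IFIT5), chr3:122564293-122564352 (DTX3L), chr3:122564297-122564356 (PARP9, minus strand), chr6:32844033-32844092 (PSMB8, minus strand), chr2:37156966-37157025 (EIF2AK2, minus strand), chr14:94110613-94110672 (IFI27) and chr1:78620315-78620399 (IFI44L). In ISG15 and in BST2 the 2 matches overlap, which joins 3 GAAA blocks. DTX3L and PARP9 are transcribed away from each other and hold the same 10 bases, 1 match read from both strands. Genes with a match were found over the whole range of levels: the pooled level of the 19 genes with a match ran from 0.292 to 298 CPM with a median of 11.7, and that of the 11 genes without a match from 2.14 to 167 CPM with a median of 22.7. PSMB8 and IFI44L stand at the ends of the first range. The genes in whose windows these letters were not found were ADAR, SP100, IRF1, PSMB9, DDX58, STAT2, OAS1, IRF9, IFI35, TRIM25 and SAMHD1.

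The levels of the 38 genes spanned 3 orders of magnitude. Prime-seq counts 1 tag at the 3′ end of each transcript, so that CPM values of different genes are comparable without division by length. PSMB8, the immunoproteasome subunit β5i, was the most counted, at 243 to 334 CPM with a median of 297, and its partner PSMB9 (β1i) was counted at 79.7 ± 17.2 CPM (SD, n = 31). ADAR, which edits double-stranded RNA and thereby keeps it from the sensors, followed at 164 ± 20.1 CPM, and IFITM2, which blocks virus entry at endosomal membranes, at 122 ± 18.1 CPM. TRIM22 and TRIM25, antiviral ubiquitin ligases, were counted at 103 ± 15.1 and 85.1 ± 12.2 CPM. SP100, a nuclear body protein, was at 95.7 ± 13.3 CPM, DTX3L, the ubiquitin ligase partner of PARP9, at 62.1 ± 7.53 CPM, ISG15, the ubiquitin-like modifier, at 47.1 ± 9.18 CPM, and the transcription factor IRF1 at 46.2 ± 10.1 CPM. The 5 most counted genes, PSMB8, ADAR, IFITM2, TRIM22 and SP100, took 54.5% of the 29669 UMIs of the list.

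At the other end of the range, IFIT1, which binds RNA with a foreign 5′ end, was counted at 0 to 13.6 CPM with a median of 4.70, OAS1, which makes the activator of RNase L, at 4.74 ± 3.06 CPM, and the dynamin-like GTPases MX2 and MX1 at 3.57 ± 3.19 and 1.83 ± 1.82 CPM. IFI27, IFITM1, IFI44L and USP18 did not pass the filter: 16 UMIs of IFI27 were counted in 11 of 31 libraries, 7 of IFITM1 in 7, 6 of IFI44L in 6, and 4 of USP18, the protease that takes ISG15 off its targets, in 4. By day (4, 10 and 13) these were 4, 5 and 7 UMIs for IFI27, 5, 1 and 1 for IFITM1, 2, 3 and 1 for IFI44L, and 1, 0 and 3 for USP18. By promoter (EF1a and SFFV) they were 8 and 8, 3 and 4, 3 and 3, and 2 and 2. Of IFI27, pooled CPM at day 13 over day 4 was 1.92 (exact 95% interval 0.487 to 8.93, for counting error alone), so that neither a doubling nor its absence could be seen at this depth for IFI27, and the other 3 had fewer UMIs.

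Within a family the levels differed widely. Of the IFIT genes, which lie together on chromosome 10, IFIT5 was counted at 21.3 ± 6.88 CPM, IFIT3 at 17.7 ± 5.05, IFIT2 at 12.4 ± 5.31 and IFIT1 at a mean of 5.44. Of the OAS genes on chromosome 12, OAS2 had 21.1 ± 5.95 CPM against 7.48 ± 4.20 for OAS3 and 4.74 ± 3.06 for OAS1. IFITM2 had 2509 UMIs in all, against 218 of IFITM3 and 7 of IFITM1. The 3 IFITM genes are near-identical copies on chromosome 11, and the annotated spans of IFITM1 and IFITM2 overlap, so how reads were divided between them is uncertain. PSMB9 overlaps PSMB8-AS1 (2218 UMIs) on the same strand, so that strand alone would not separate their reads. PSMB8 overlaps PSMB8-AS1 on the other strand. ISG15 overlaps an annotated pseudogene on the other strand with 1254 UMIs against 994 of its own. Also on the other strand, IFIT1, IFIT2 and IFIT3 overlap LIPA (428 UMIs). EIF2AK2 overlaps GPATCH11 (699), PSMB9 overlaps TAP1 (2401) and PARP9 overlaps DTX3L (1279), among others. The counting strand is not given in the sources used here, so reads of these genes and of their neighbours cannot be told apart. The RNA sensors DHX58, DDX58 (RIG-I) and IFIH1 (MDA5) were counted at 9.90 ± 4.42, 8.55 ± 4.20 and 11.1 ± 4.99 CPM, and the RNA-activated kinase EIF2AK2 (PKR) at 40.7 ± 8.10 CPM. The remaining genes, BST2, PARP9, STAT2, IFI6, IRF7, IFI35, IFI44, SAMHD1, ISG20 and IRF9, lay between 36.02 (BST2) and 2.14 CPM (IRF9) with all libraries pooled.

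The summed level of the 38 genes was 1407 ± 73.5 CPM at day 4 (SD, n = 10), 1455 ± 48.2 at day 10 (n = 10) and 1449 ± 49.5 at day 13 (n = 11). With the EF1a promoter it was 1442 ± 60.1 CPM (n = 16) and with SFFV 1433 ± 61.5 (n = 15), and with sh-CTRL 1442 ± 73.1 (n = 16) against 1433 ± 43.9 with sh-XIAP (n = 15). These means lay within 1 SD of each other. Since the abundant genes set this sum, it was also taken over the 25 genes under 25 CPM, which gave 223 ± 18.7, 235 ± 28.1 and 244 ± 21.3 CPM at days 4, 10 and 13, and 239 ± 24.5 and 229 ± 22.9 CPM with EF1a and SFFV. The low genes of day 13 thus had the higher mean, with the libraries of day 4 at 197 to 252 CPM and those of day 13 at 213 to 284 CPM overlapping. Between 30 and 37 of the 38 genes had a UMI in a library, and with every library thinned to 312852 UMIs between 30 and 34, with a median of 32 at each day. In bulk samples, fewer cells with a transcript and less of it per cell cannot be told apart.

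**Figure D1:**
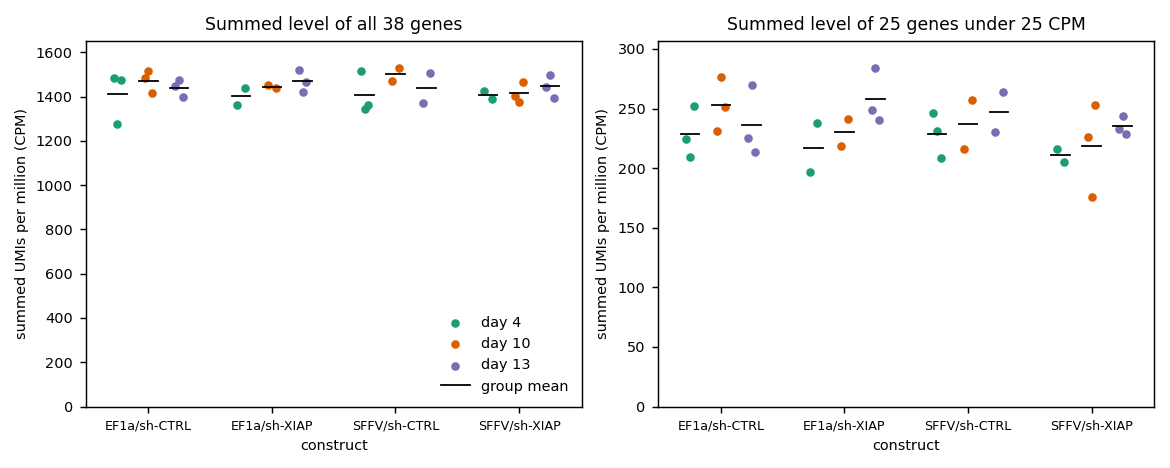
Summed level, in CPM, of all 38 genes (left) and of the 25 genes under 25 CPM (right) in each library, by construct and day, with group means as lines. The sums of all genes lie between 1276 and 1530 CPM, and the lowest is 1 library of EF1a/sh-CTRL at day 4.

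The first comparison asks whether the genes change with time after transduction. Day goes with the harvest, and the methods name cell sorting for days 10 and 13 and not for day 4, so time and handling cannot be told apart. At day 13 against day 4, 0 of the 34 genes were called by limma-voom at an adjusted p of at most 0.25, where 0.43% of all genes tested were called. At an unadjusted p under 0.05 there were 5 (limma-voom), 6 (edgeR) and 3 (DESeq2), where 6.91%, 6.52% and 2.25% of all genes tested were. edgeR and DESeq2 called 0 of the 34 genes as well. The median log2 fold change of the 34 genes was 0.08, with that of all genes tested near 0, and with 20 genes above 0 and 14 below. The 95% interval of 28 of the 34 genes lay within 2-fold in either direction, and of 16 within 1.5-fold. The limma-voom interval of all 34 excluded a fall to 0.5 of the day 4 level, and for 28 it excluded a doubling. The exact 95% interval of pooled UMIs, for counting error alone, reached below 0.5 for IFIT1 (32 against 50 UMIs, ratio 0.701, 0.435 to 1.11). It also did for OAS1 (31 against 43 UMIs, ratio 0.79, 0.481 to 1.28). For genes of few UMIs the exclusion by limma-voom is therefore uncertain.

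SP100 had the smallest p. It was counted at 61.5 to 98.8 CPM at day 4 (median 87.5), at 83.9 to 118 CPM at day 10 (median 99.1) and at 80.5 to 119 CPM at day 13 (median 107), so the days overlapped. The log2 difference of day 13 from day 4 was 0.24 (SE 0.08) with an adjusted p of 0.484 by limma-voom. With the stricter filterByExpr filter, which left 10434 genes, the same gene was called (log2 0.25, adjusted p = 0.218, limma-voom), where 1.11% of genes were. IRF7, the transcription factor that amplifies interferon production, ran from 9.90 to 22.7 CPM at day 4 and from 13.3 to 34.4 CPM at day 13, and its log2 difference was 0.42 (SE 0.17, adjusted p = 0.602, limma-voom). DDX58 ran from 3.05 to 12.1 CPM at day 4 and from 6.22 to 20.6 CPM at day 13, with a log2 difference of 0.65 (SE 0.26, adjusted p = 0.618, limma-voom). In the other direction TRIM22 was counted at 84.9 to 130 CPM at day 4 and at 63.4 to 126 CPM at day 13, with a log2 difference of −0.21 (SE 0.09, adjusted p = 0.635, limma-voom). PARP9, which joins DTX3L in DNA repair, and IFIT5 had differences of −0.30 (SE 0.19) and −0.26 (SE 0.18). The other gene with an unadjusted p under 0.05, IFITM3, lay at 0.53 (SE 0.24).

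At day 10 against day 4, 0 of 34 genes were called by limma-voom, edgeR or DESeq2, where 0.294% of all genes were called by limma-voom. An unadjusted p under 0.05 was found for 2, 1 and 1 of the 34, and for 6.61%, 6.41% and 2.18% of all genes. SP100 differed by 0.21 (SE 0.09, adjusted p = 0.651, limma-voom), IFIT3 by 0.41 (SE 0.20) and IFIT5 by 0.33 (SE 0.17), and in the other direction IFI44 by −0.55 (SE 0.34), TRIM22 by −0.14 (SE 0.09) and IFIT1 by −0.32 (SE 0.33). With no filter on low counts, 5 members (SP100, IFIT3, IFIT5, IRF7 and IFI44L) were called higher at day 10, but so were 8258 of 29756 genes in either direction, 27.8% of them. At day 13 against day 10, 0 of 34 were called by any of the 3 tools and 0% of all genes by limma-voom. In the same order of tools, 2, 2 and 1 had an unadjusted p under 0.05, against 5.36%, 5.54% and 1.97% of all genes. IFIT5 gave the smallest p: it was counted at 12.8 to 36.5 CPM at day 10 (median 24.5) and at 6.34 to 27.0 CPM at day 13 (median 19.1), a log2 difference of −0.59 (SE 0.19, adjusted p = 0.911, limma-voom). DDX58 (0.67, SE 0.30), IFITM3 (0.52, SE 0.27) and IFI44 (0.65, SE 0.35) lay in the other direction, and IFIT3 (−0.26, SE 0.21) and IFIH1 (−0.31, SE 0.28) in the same.

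**Figure D2:**
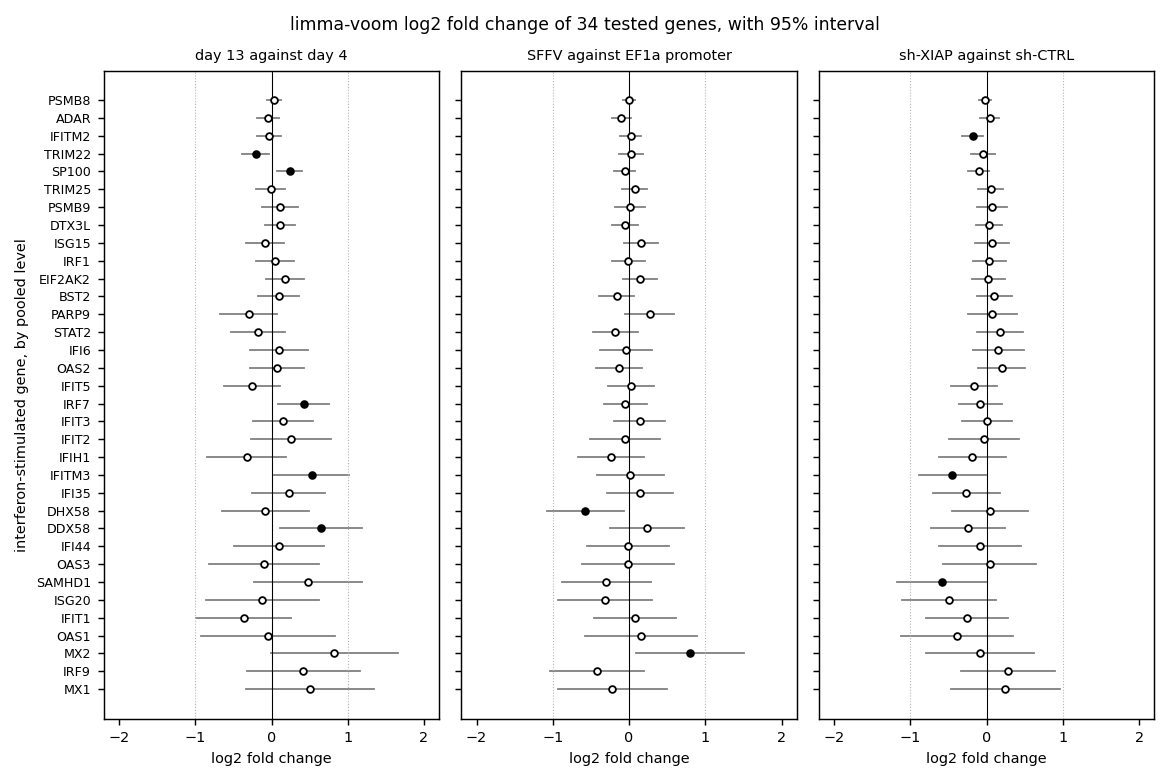
log2 fold change (limma-voom) of the 34 tested genes, ordered by level from PSMB8 at the top to MX1, with lines for the 95% interval and filled points for an unadjusted p under 0.05. Dotted lines mark 2-fold. Filled points number 5 for day 13 against day 4, 2 for SFFV against EF1a and 3 for sh-XIAP against sh-CTRL. Of all genes tested, 6.91%, 5.98% and 5.64% had such a p. The intervals widen toward the low genes.

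The promoter comparison asks whether the SFFV promoter, taken from a retrovirus, goes with other levels of these genes than the cellular EF1a promoter. Over all days and both shRNAs, 0 of 34 genes were called by limma-voom, edgeR or DESeq2, where 0.119% of all genes were called by limma-voom. An unadjusted p under 0.05 was found for 2, 2 and 1 of the 34, and for 5.98%, 6.05% and 2.14% of all genes. The median log2 difference of the 34 genes was −0.01, and 31 of the 34 limma-voom intervals lay within 2-fold and 22 within 1.5-fold. DHX58 (LGP2), the regulator of the RIG-I-like sensors, was counted at 5.43 to 18.8 CPM with EF1a (median 11.4) and at 1.82 to 17.4 CPM with SFFV (median 8.24), a log2 difference of −0.57 (SE 0.25, adjusted p = 0.794, limma-voom). MX2 was counted at 0 to 8.29 CPM with EF1a (median 1.98) and at 0 to 14.4 CPM with SFFV (median 5.29), a log2 difference of 0.80 (SE 0.35, adjusted p = 0.798, limma-voom). PARP9 (0.27, SE 0.16) and ISG15 (0.15, SE 0.11) followed above 0, and ADAR (−0.10, SE 0.06) and tetherin, BST2 (−0.16, SE 0.11), below 0. With sh-CTRL alone, where the promoters can be compared without the KD, 0 of 34 genes were called by any of the 3 tools and 0% of all genes by limma-voom. In the same order of tools, 1, 3 and 2 had an unadjusted p under 0.05, against 5.23%, 5.28% and 1.73% of all genes. There ISG20, an exonuclease, was counted at 4.07 to 11.6 CPM with EF1a/sh-CTRL and at 0 to 7.55 CPM with SFFV/sh-CTRL, a log2 difference of −1.03 (SE 0.41, adjusted p = 0.931, limma-voom). MX2 (0.98, SE 0.49), DDX58 (0.58, SE 0.33), IFIT5 (0.36, SE 0.21), ADAR (−0.17, SE 0.09) and DHX58 (−0.66, SE 0.36) were the next.

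Day 4 was the earliest time sampled. At day 4, 0 of 34 genes were called between SFFV and EF1a by limma-voom, edgeR or DESeq2, and 0% of all genes were called by limma-voom. By these tools 2, 3 and 1 had an unadjusted p under 0.05, against 4.96%, 4.61% and 1.18% of all genes. MX2 was counted at 0, 0, 0, 1.73 and 2.04 CPM in the 5 EF1a libraries and at 1.82, 5.29, 5.35, 6.04 and 6.18 CPM in the 5 SFFV libraries. The SFFV libraries were higher but for 1, which lay below the highest EF1a library. These were 4 against 19 UMIs, a pooled ratio of 5.41 with an exact 95% interval from 1.80 to 21.9 for counting error only, and the log2 difference was 2.13 (SE 0.62, adjusted p = 0.921, limma-voom). At days 10 and 13 the same gene was at 1.29 to 8.29 CPM with EF1a (median 2.30) and at 0 to 14.4 CPM with SFFV (median 3.41), and the change of the promoter difference was −1.998 (SE 0.75, adjusted p = 0.693, limma-voom).

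BST2, which tethers budding virus to the cell, was the only 1 of the 34 genes whose groups did not overlap at day 4, and 0.764% of all genes tested did not overlap. It was counted at 34.0, 34.7, 36.6, 42.9 and 44.9 CPM with EF1a and at 25.7, 26.8, 29.1, 30.4 and 30.7 CPM with SFFV, a log2 difference of −0.41 (SE 0.18, adjusted p = 0.969, limma-voom). At days 10 and 13 it ran from 29.5 to 55.5 CPM with EF1a and from 25.6 to 45.7 CPM with SFFV. IFIT1, whose promoter is shown above, was counted at 5.20, 8.14, 8.49, 9.19 and 10.7 CPM with EF1a and at 2.65, 4.01, 4.12, 4.53 and 9.09 CPM with SFFV at day 4, a log2 difference of −0.82 (SE 0.41, adjusted p = 0.969, limma-voom). Below 0, SP100 (−0.22, SE 0.11), MX1 (−1.18, SE 0.61) and OAS2 (−0.42, SE 0.24) followed by p, and above 0, after MX2, IFI44 (0.52, SE 0.40) and IFIT3 (0.34, SE 0.27). At days 10 and 13, 0 of 34 were called by the 3 tools, where 0.204% of all genes were called by limma-voom. By limma-voom, edgeR and DESeq2, 1, 2 and 1 had an unadjusted p under 0.05, against 6.56%, 6.77% and 2.79% of all genes. DHX58 gave −0.80 (SE 0.32, adjusted p = 0.657, limma-voom), ADAR −0.14 (SE 0.08), IRF9 −0.62 (SE 0.38), IFIT1 0.53 (SE 0.35), PARP9 0.32 (SE 0.21) and ISG15 0.18 (SE 0.14). The change of the promoter difference from day 4 to the later days was called for 0 of 34 genes by the 3 tools, where 0.0905% of all genes were called by limma-voom. Its unadjusted p was under 0.05 for 2, 1 and 0 of the 34, and for 5.89%, 5.74% and 1.93% of all genes. Beside MX2 these tests gave 1.35 for IFIT1 (SE 0.54, adjusted p = 0.722, limma-voom), 1.45 for MX1 (SE 0.75), 0.24 for SP100 (SE 0.14), −0.80 for IFI44 (SE 0.53) and −0.68 for DHX58 (SE 0.49).

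**Figure D3:**
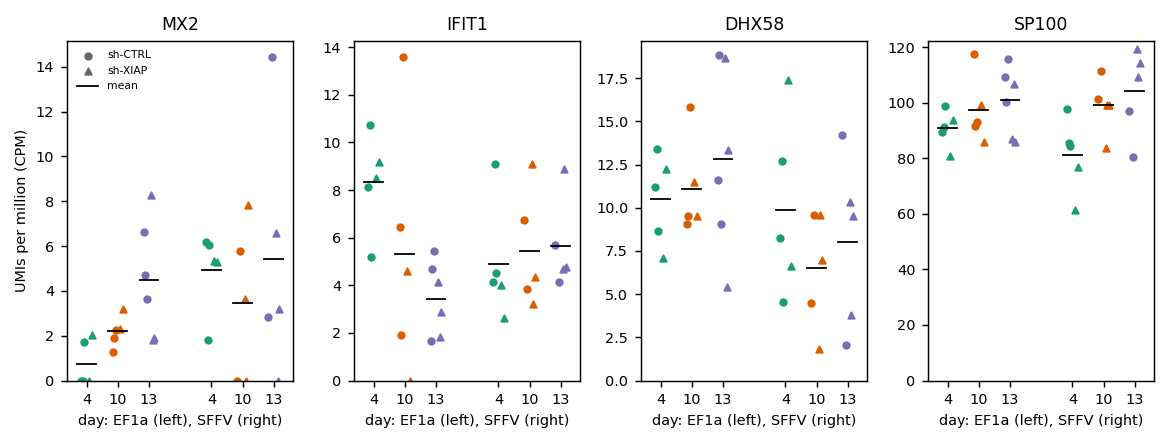
Level, in CPM, of 4 genes in each library by promoter and day, with circles for sh-CTRL, triangles for sh-XIAP and lines for the mean of each promoter and day. MX2 at day 4 reaches at most 2.04 CPM with EF1a and 6.18 CPM with SFFV, and SP100 has its lowest library at day 4 with SFFV (61.5 CPM).

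Between sh-XIAP and sh-CTRL, 0 of 34 genes were called by limma-voom, edgeR or DESeq2, where 0.017% of all genes were called by limma-voom. By these tools 3, 1 and 1 had an unadjusted p under 0.05, against 5.64%, 5.75% and 2.24% of all genes. IFITM2 was counted at 99.7 to 141 CPM with sh-CTRL (median 133) and at 85.7 to 160 CPM with sh-XIAP (median 114), a log2 difference of −0.18 (SE 0.07, adjusted p = 0.699, limma-voom). IFITM3 differed by −0.45 (SE 0.22) and SAMHD1, which lowers the dNTP pool that reverse transcription needs, by −0.59 (SE 0.29). SAMHD1 ran from 1.51 to 9.53 CPM with sh-CTRL and from 0 to 12.8 CPM with sh-XIAP. OAS2 (0.20, SE 0.15), STAT2 (0.17, SE 0.15) and IFI6 (0.16, SE 0.17), a mitochondrial inhibitor of cell death, were the first above 0. The limma-voom interval of all 34 genes excluded a doubling with sh-XIAP, and of 31 genes a fall to 0.5. The exact interval of pooled UMIs, for counting error alone, included a doubling for MX1 (24 against 16 UMIs, ratio 1.43, 0.729 to 2.88). For genes of few UMIs the exclusion by limma-voom is therefore uncertain here too. The difference of the shRNA comparison between the promoters was called for 0 of 34 genes by any of the 3 tools and for 0% of all genes by limma-voom. Its unadjusted p was under 0.05 for 4, 4 and 2 of the 34, and for 5.44%, 5.81% and 1.81% of all genes. The log2 values were 1.43 for ISG20 (SE 0.61, adjusted p = 0.896, limma-voom), 0.43 for ISG15 (SE 0.22), 0.68 for IFI44 (SE 0.53), −0.68 for IRF7 (SE 0.28), −0.65 for IFIT5 (SE 0.30) and −0.42 for PSMB9 (SE 0.20).

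Over all 31 libraries, the spread of most of the 34 genes was near that of counting. Divided by the Poisson variance, the variance over all 31 libraries, with group differences left in, had a median of 1.16 over the 34 genes. It ran from 0.577 for DTX3L to 1.86 for PSMB9, against a median of 1.05 over all genes tested. Above 1.5 were PSMB9, MX2 (1.72) and TRIM22 (1.57), 8.82% of the 34 genes against 9.98% of all genes tested. PSMB9 ran from 39.8 to 108 CPM over the libraries, whereas PSMB8, whose start lies beside it on the other strand, ran from 243 to 334 CPM with a variance of 0.745 times that of counting. Among the 18 genes at 20 CPM or more, the correlation of the residuals within groups had a median of 0.02 over 153 pairs, against 0.01 over the pairs of the 7942 genes tested at that level. These are described without a test, since the pairs share the 31 libraries and their depth.

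**Figure D4:**
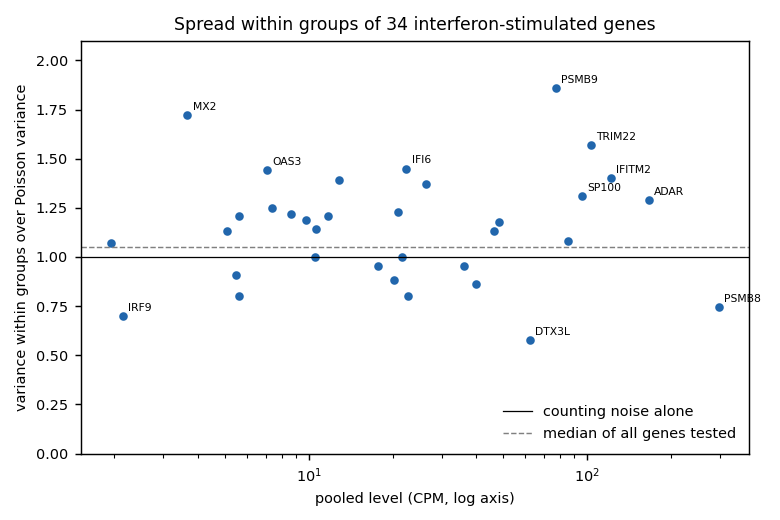
Variance over all libraries, divided by the Poisson variance, of the 34 tested genes against their pooled level (CPM, log axis). Lines mark counting noise alone (1) and the median of all genes tested (1.05). The title and axis name a spread within groups, but group differences were not removed. PSMB9, MX2 and TRIM22 lie above 1.5, and DTX3L is the lowest at 0.577.

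The fold changes were also set beside the promoter letters, as a description without a test. At day 13 against day 4 the median log2 difference was 0.06 over the 16 tested genes with a match and 0.11 over the 11 without, and between SFFV and EF1a it was −0.0062 and −0.0087. Of the 16 genes with a match, 1 had an unadjusted p under 0.05 between the days and 0 between the promoters, and of the 11 without, 2 and 0. Over all genes tested, 6.91% and 5.98% had such a p by limma-voom.

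The pathway upstream of these genes was counted as well. Of 21 interferon genes in a second list, only IFNW1 had a row, with 2 UMIs over all libraries, and the others were not analysed here. The receptor chains IFNAR1, IFNAR2 and IFNGR1 had a UMI in every library, at 31.5, 20.3 and 33.2 CPM pooled, and IL10RB, IFNLR1 and IFNGR2 were at 3.12, 2.82 and 1.07 CPM. The kinases JAK1, TYK2 and JAK2 were at 63.4, 51.4 and 13.4 CPM. Of the transcription factors, STAT2 was at 22.7 and IRF9 at 2.14 CPM.

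Of 111 such pathway genes 76 were tested, and 1 was called by limma-voom in any of the 10 comparisons, at day 10 against day 4, where 0.294% of all genes were called. DESeq2 called none of the 76 in any comparison. STAT3, which transmits interleukin signals and can restrain the interferon response, was counted at 34.6 to 55.5 CPM at day 4 (median 51.5), at 25.6 to 45.3 CPM at day 10 (median 35.9) and at 29.6 to 48.0 CPM at day 13 (median 37.6). It fell by 0.48 on the log2 scale at day 10 against day 4 (SE 0.13, adjusted p = 0.202, limma-voom), with the groups overlapping. At day 13 against day 4 the difference was −0.40 (SE 0.12), just short of the threshold in limma-voom (adjusted p = 0.255) and called by edgeR (adjusted p = 0.245). PTPN6, a phosphatase that damps receptor signals, differed by −0.20 (SE 0.08), and TDRD7 and SAMD9L, induced antiviral proteins, by 0.33 (SE 0.18) and 0.43 (SE 0.25). Between SFFV and EF1a the smallest p values belonged to APOBEC3F, a cytidine deaminase that acts on retroviral DNA (0.40, SE 0.14), to GBP3 (0.64, SE 0.27), to HERC5, the ligase that attaches ISG15 (−0.22, SE 0.08), and to the DNA sensor IFI16 (−0.18, SE 0.07), of which none was called by limma-voom (adjusted p from 0.722 to 0.789). TRIM14, an adaptor of antiviral signaling, was called lower with sh-XIAP by edgeR alone (log2 −0.44, adjusted p = 0.237).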

How the data were processed

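NALM-6 RNA was profiled by prime-seq, a bulk RNA-seq method with UMIs at the 3′ end. The authors deposited UMI counts per gene and library, not normalized. The submitters' processing notes name STAR 2.6.0a and human and mouse genome builds. No source used here states the counting settings or the annotation. Per the study's methods, outlier samples were left out, and 5 of 36 group and replicate numbers are absent. Identifiers were matched to GENCODE 29 (29928 of 30667).

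Counts were TMM-scaled (edgeR 4.0.16) and fitted by limma-voom (limma 3.58.1, R 4.3.3) with 12 group means for constructs and days, all 31 libraries sharing the estimate of the spread. Genes with over 1 CPM in at least 1/3 of libraries were kept, p-values were adjusted over all of them by the Benjamini-Hochberg method, and an adjusted p of at most 0.25 was called, the threshold of the study. Intervals are limma's 95% intervals. Exact intervals on ratios of summed UMIs account for counting error alone. For some genes of few UMIs they reached a 2-fold change that limma's intervals excluded. edgeR's quasi-likelihood test, DESeq2 1.42.0, other scalings, filters, designs, thinning and left-out libraries were tried as alternatives, and the fits were tested on simulated data. The genes named in each comparison were those called or, as none was, the 3 above 0 and the 3 below 0 with the lowest p. The 10 with the highest mean CPM, those not tested, and, of the pathway list, called genes, the 2 lowest p in each direction of 2 comparisons, and ligands, receptors and transducers were named too. A gene of the pathway list is not reported here. Genes outside this rule (IFITM3 at day 13, MX1 and OAS2 at day 4, TRIM14 and the family members) were chosen after their values were seen. The genes, lists and comparisons were chosen with earlier results of these data known. Pairs of replicates in a group differed by 1.08 to 2.74 in chi-square per gene (26 pairs), so no library was an exact copy of another. Counting alone gives values near 1, so this cannot show whether replicates were separate cultures. Total UMIs of 312852 to 1153668 per library limit the precision of genes of few CPM.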

Additional observations from a re-analysis of the deposited data

Results flagged for a closer look

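In EF1a/sh-CTRL, 1 library lay far from the other libraries of its construct on 2 of 3 measures of the interferon-stimulated genes. Day 4 replicate 2 had the lowest summed level, 1276 CPM, and the fewest of the 38 genes with a UMI, 30. On the third measure, the summed level of the 25 genes under 25 CPM, it was also the lowest of its construct at 209 CPM but not far from the next (gap over range 0.0624, critical value 0.493). Among the libraries of day 4 it was not far from the others on the first 2 measures (0.276 and 0.429, critical value 0.466). It held 372930 UMIs in all, 476 of them from these genes, and 30 genes kept a UMI after thinning to 312852. These were 2 of 18 tests for a far value, of which chance gives about 1 in 20. Over all genes, this library differed from replicates 1 and 3 of its group by 2.3 and 2.74 in chi-square per gene. Replicates 1 and 3 differed from each other by 1.17, so the library stood apart beyond the interferon-stimulated genes. Without this library, 0 of the 34 genes were called by limma-voom in each comparison, and a cause was not tested.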

How the results depend on the processing

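Of 448 counts of interferon-stimulated genes called, over 14 settings and 31 left-out libraries, 446 were 0. The exceptions were 5 genes for day 10 against day 4 with no filter on low counts, a fit that called 8258 of 29756 genes, and 1 gene (SP100) for day 13 against day 4 with filterByExpr. Leaving out each library in turn gave a lowest and a highest count of 0 in every comparison. Of 2667 values of single genes, 4 changed sign. IFIT1 between SFFV and EF1a at day 4 was 0.011 with additive terms, which give the same promoter difference at every day and so do not estimate day 4 alone. IFIT1 for day 10 against day 4 was 0.022 after thinning, and IFI44 was −0.23 between SFFV and EF1a at day 4 and 0.33 in the change of that difference after thinning. The median number of genes with a UMI was 34, and 32 after thinning, which leaves fewer UMIs. The causes of the other changes were not tested.

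Same-numbered libraries of different groups did not deviate together (mean r −0.000553 over 149 pairs, highest 0.0258). Those of the same construct on different days did not either (mean r −0.00217 over 28 pairs, highest 0.0104). The median variance of all genes tested was 1.05 times that of counting, so this check could miss a true pairing. The numbers were not taken to pair the libraries. With the replicate number as a block, 0 interferon-stimulated genes were called in every comparison. All genes called for day 13 against day 4 numbered 76, with 50 under the block, 20 by DESeq2, 33 by limma-trend, 27 after thinning, 26 at an adjusted p of at most 0.05, 116 with filterByExpr and 21 to 92 with a library left out, the lowest without SFFV/sh-CTRL day 13 replicate 2. For day 10 against day 4 they numbered 52, with 10 by DESeq2, 15 after thinning, 12 at 0.05, 79 with the library total as a covariate, 22 without the 2 shallowest libraries (chosen after seeing the data) and 13 to 61 with a library left out, the lowest without EF1a/sh-XIAP day 10 replicate 1. For SFFV against EF1a they numbered 21, with 1 by DESeq2, 1 after thinning, 4 at 0.05, 33 with the covariate, 10 with no filter, 6 without the shallowest and 3 to 30 with a library left out. For days 10 and 13 alone they numbered 36, with 18 by DESeq2, 59 by edgeR, 106 by limma-trend, 14 at 0.05, 70 with filterByExpr and 18 without the shallowest. For sh-XIAP they numbered 3, with 27 by edgeR, 16 by limma-trend, 0 by DESeq2 and 0 to 14 with a library left out. The changes of differences could not be formed with additive terms.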
